A study of Homo sapiens with 8 samples.

Results

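Transcripts of the aryl hydrocarbon receptor pathway were examined by RNA-seq in Hct116, an established line of human colorectal carcinoma cells, with total RNA as input. The genes are AHR, its dimerization partner ARNT, the repressor AHRR and the classic targets TIPARP, CYP1A1 and CYP1B1. These 6 of the 23459 genes in the count table were picked from the comparison of lenalidomide with DMSO, because TIPARP read counts were lower with lenalidomide. Their values in that comparison are therefore given as a description, with standard errors and without a test. The cells received 30 μM lenalidomide, a thalidomide derivative that redirects the CRL4-CRBN ubiquitin ligase to new substrates, or the same amount of the solvent DMSO, and were collected after 16 h, with 4 replicates per treatment. The study split these cells between RNA-seq and proteomics. With the treatment, their medium was exchanged for one that differed in the isotope label of its amino acids. Part of the 4 proteomics replicates had the labels swapped, and the sample titles do not name which. No ligand of the receptor is named as a treatment in the sample records, and neither treatment involved a genetic change. The series text and the study's figure legend on these RNA data call the replicates biological. The methods of the study call the replicates of its single time point proteomics experiment technical, so that the errors given here may measure technical spread only.

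AHR is a ligand-activated transcription factor of the bHLH-PAS family. In the cytosol it is held by HSP90 and the co-chaperone PTGES3. On binding of dioxin-like compounds, dietary indoles or tryptophan metabolites it enters the nucleus, pairs with ARNT and binds response elements with the core GCGTG. Its targets include the monooxygenases CYP1A1 and CYP1B1, which oxidize polycyclic compounds and can remove the activating ligand, and 2 genes that restrain the receptor. These are AHRR, which resembles AHR and competes for ARNT, and TIPARP, also called PARP7, a mono-ADP-ribosyltransferase that modifies AHR and lowers its activity. In the intestinal epithelium the receptor is known for sensing compounds of diet and microbiota.

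Promoter sequences are shown for the 3 targets whose lenalidomide and DMSO values did not overlap, since the core element is what these targets are known to share. The sequences are from RefSeq on GRCh38.p14 and cover the 250 bases before the annotated start, 5′ to 3′ on the strand of the gene, with each match to GCGTG or to its reverse complement CACGC in capitals. TIPARP (first of 3 annotated starts) is at chr3:156674340-156674589 on the plus strand, AHRR (first of 2 starts) at chr5:321464-321713 on the plus strand and CYP1A1 at chr15:74725529-74725778 on the minus strand.
TIPARP: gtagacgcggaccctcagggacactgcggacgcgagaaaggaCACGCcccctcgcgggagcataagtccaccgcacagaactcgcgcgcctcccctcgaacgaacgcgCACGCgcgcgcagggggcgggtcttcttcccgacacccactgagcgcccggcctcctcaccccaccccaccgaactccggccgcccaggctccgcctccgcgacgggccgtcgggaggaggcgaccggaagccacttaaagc
AHRR: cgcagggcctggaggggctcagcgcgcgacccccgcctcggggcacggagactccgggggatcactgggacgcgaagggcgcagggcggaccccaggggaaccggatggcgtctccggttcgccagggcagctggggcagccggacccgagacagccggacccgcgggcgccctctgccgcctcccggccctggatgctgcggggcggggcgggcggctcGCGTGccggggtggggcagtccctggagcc
CYP1A1: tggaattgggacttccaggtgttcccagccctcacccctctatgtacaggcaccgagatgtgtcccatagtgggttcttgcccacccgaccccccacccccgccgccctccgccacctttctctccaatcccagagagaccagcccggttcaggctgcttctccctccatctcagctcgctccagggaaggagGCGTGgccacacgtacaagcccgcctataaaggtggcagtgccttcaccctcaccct

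The TIPARP window held 2 matches, which begin 208 and 142 bases before the start, both on the opposite strand. The AHRR window held 1, at 30 bases before the start, and it also matched the longer element TNGCGTG, which contains GCGTG. The CYP1A1 window held 1, at 57 bases. Of the 5 members in the RefSeq table, 3 thus had GCGTG before at least 1 start, as did 36.2% of the 27305 genes in the table, and AHR and ARNT had 0 matches. In the whole 300 bases of the table, which run past the start, 4 of the 5 members and 40.6% of genes had a match. The second AHRR start had 2 matches, and the other TIPARP starts had 0. CYP1B1 was not matched in this table. Over all 35116 promoter windows of the table, searched on both strands, 32.2% held GCGTG and 4.52% held TNGCGTG. The E-box CACGTG was in 6.34% of windows and in that of AHR, and the hypoxia element core ACGTG, which is also part of CACGTG, was in 18.5% and in those of AHR and CYP1A1. The 3 promoters shown were rich in G and C (71.6% for TIPARP, 79.2% for AHRR and 62.4% for CYP1A1, against a median of 58% over the table). The matches describe letters in these windows and do not show that the receptor binds there. Bases further upstream were not searched, so response elements outside the windows would not be seen.

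Library totals ran from 28218471 to 37473413 counts. The 4 lenalidomide totals were all below the 4 DMSO totals (p = 0.0286, exact permutation test, two-sided, the lowest p possible with 4 against 4). All values below are therefore scaled by library size and TMM factor, as CPM, the counts scaled to a common library size, or per kilobase of exon as well (RPKM) where genes are compared with each other. Lenalidomide replicate 4 had the smallest total and the most genes with a count, 19568 against 16953 to 18476 in the other libraries. The epithelial markers EPCAM, KRT8, KRT18, KRT19 and CDH1 were present in all libraries, with a summed level of 2286 to 2586 CPM with DMSO and 2210 to 2544 CPM with lenalidomide. Of 6 markers of leukocytes, fibroblasts and endothelium, 5 did not exceed 6 counts in any library, and VWF had a mean of 0.366 CPM. The leukocyte marker PTPRC was higher in every lenalidomide library, at 0.0912 to 0.208 CPM against 0 to 0.0535 CPM with DMSO, and the sum of PTPRC and CD3E was 0.0912 to 0.277 CPM against 0 to 0.0535 CPM. These sums rest on 25 reads in all, and their part in the results below was not tested. In bulk RNA, fewer cells with a transcript and less of it per cell cannot be told apart.

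In solvent-treated cells TIPARP was the most abundant of the 6 transcripts per length and the cytochrome P450 genes were the least. The level was 24.5 RPKM for TIPARP, 13.9 for AHR, 9.62 for ARNT, 1.77 for AHRR, 0.547 for CYP1A1 and 0.323 for CYP1B1 (means of 4 libraries). TIPARP lay above 79.8% of the 13925 genes tested, AHR above 68.1%, ARNT above 59.9%, AHRR above 26.9%, CYP1A1 above 13.3% and CYP1B1 above 8.99%. The order was the same with lenalidomide, and the ranges of neighbours in it did not overlap under either treatment. The step from TIPARP to AHR was 1.77 times with DMSO and 1.47 times with lenalidomide. The step from AHRR to CYP1A1 was 3.23 times with DMSO and 2.02 times with lenalidomide. The receptor and its partner were thus present at moderate levels, while CYP1A1 rested on 55 to 89 reads and CYP1B1 on 51 to 64 reads per library. The mean counting error was 12.2% for CYP1A1 and 13.1% for CYP1B1, against 1.70% for TIPARP.

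Among the 6 genes, TIPARP and AHRR were lower with lenalidomide in every library, CYP1A1 was higher in every library, and AHR, ARNT and CYP1B1 overlapped between treatments. Over all 13925 genes tested, every lenalidomide CPM was below every DMSO CPM for 0.84% of the genes and above it for 1.24%. The quasi-likelihood test of edgeR, at a Benjamini-Hochberg adjusted p of 0.05, called 0 of the 6 members and 2 genes in all, 0.0144% of those tested. With DESeq2 1 member, TIPARP, was past the same threshold where 0.0646% of genes were, and with edgeR's likelihood ratio test again 1, TIPARP, where 0.0862% were. TIPARP was picked for this difference, so nothing is read from these counts.

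**Figure D1:**
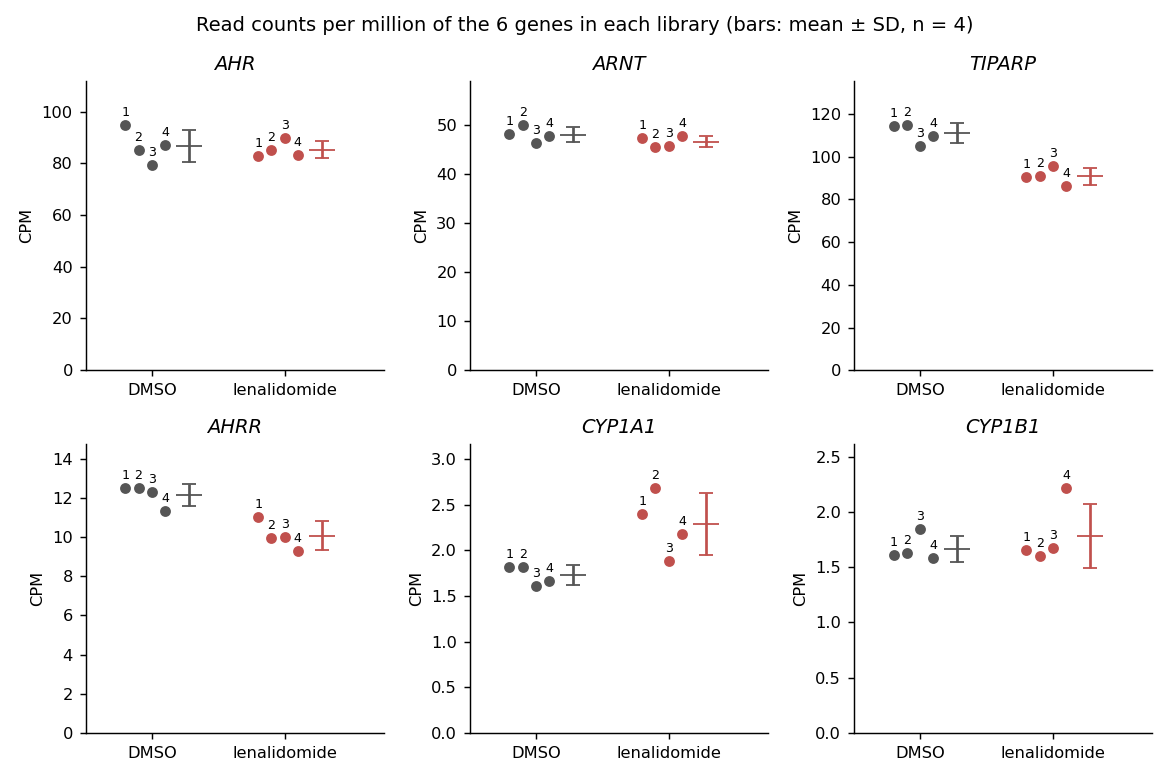
Level in CPM of each of the 6 genes in the 4 DMSO and 4 lenalidomide libraries, with replicate numbers beside the points and the mean ± SD (n = 4) as a bar to the right. TIPARP and AHRR separate downwards, from 86.3 to 95.8 CPM against 105.2 to 114.8 CPM and from 9.28 to 11.1 CPM against 11.3 to 12.5 CPM, and CYP1A1 separates upwards, while the other 3 genes overlap.

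TIPARP (Entrez gene 25976; chromosome 3 of GRCh37, 156391024 to 156424559, plus strand) feeds back on AHR by ADP-ribosylation. It had 114.5, 114.8, 105.2 and 109.8 CPM in DMSO replicates 1 to 4 and 90.3, 91.1, 95.8 and 86.3 CPM in lenalidomide replicates 1 to 4. The lowest DMSO library was above the highest lenalidomide library. The mean was 111.0 ± 4.53 CPM in the solvent and 90.9 ± 3.90 CPM under the drug (mean ± SD of 4 libraries), 18.2% lower, with a log2 fold change of -0.29 (standard error 0.053, 95% confidence interval -0.40 to -0.18). Of the 9093 genes that averaged 10 CPM or more, 8 had a lower log2 fold change, a rank that follows from how TIPARP was picked. Between 2490 and 4278 reads per library stood behind these values.

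The antisense gene TIPARP-AS1 overlaps the locus of TIPARP without sharing annotated exons with it (chromosome 3, 156389648 to 156392235, minus strand). The methods name no strand setting, so reads of the 2 genes could be mixed where an unannotated exon is shared. TIPARP-AS1 held 20 to 41 reads per library, at 1.05 ± 0.142 CPM in the solvent and 0.817 ± 0.111 CPM under the drug (mean ± SD of 4 libraries), and the treatments overlapped. Its log2 fold change of -0.35 had a 95% confidence interval from -0.77 to 0.07 (adjusted p = 0.999 by edgeR's quasi-likelihood test). It was named after its values were seen.

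AHRR (Entrez gene 57491; chromosome 5, 321829 to 438406, plus strand) is the repressor that competes with AHR for ARNT. It had 12.5, 12.5, 12.3 and 11.3 CPM in DMSO replicates 1 to 4 and 11.1, 9.95, 10.03 and 9.28 CPM in lenalidomide replicates 1 to 4. The treatments separated, but by a narrow gap between DMSO replicate 4 and lenalidomide replicate 1. The mean was 12.2 ± 0.568 CPM in the solvent and 10.1 ± 0.731 CPM under the drug (SD, n = 4 each), 17.1% lower, and the log2 fold change was -0.27 (standard error 0.077, 95% confidence interval -0.44 to -0.10). Of the 9093 genes that averaged 10 CPM or more, 9 had a lower log2 fold change, TIPARP among them. AHRR shares 5561 annotated exonic bases with the readthrough gene PDCD6-AHRR on the same strand, so part of its reads could stem from transcripts that start at PDCD6. PDCD6 itself had 76.6 ± 1.89 CPM in the solvent and 72.1 ± 4.62 CPM under the drug (mean ± SD of 4 libraries), with a log2 fold change of -0.09 (standard error 0.055) and overlapping treatments.

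CYP1A1 (Entrez gene 1543; chromosome 15, 75011883 to 75017877, minus strand) is the monooxygenase most used as a readout of the receptor, and its difference had the opposite sign. It had 1.82, 1.82, 1.61 and 1.66 CPM in DMSO replicates 1 to 4 and 2.40, 2.68, 1.88 and 2.18 CPM in lenalidomide replicates 1 to 4. The lenalidomide libraries were all above the DMSO libraries and spread more, and replicate 3 lay close to the DMSO range. The mean was 1.73 ± 0.110 CPM in the solvent and 2.29 ± 0.338 CPM under the drug (mean ± SD of 4 libraries), 32.4% higher, with a log2 fold change of 0.40 (standard error 0.15, 95% confidence interval 0.09 to 0.72). Of 1741 genes with a mean of 1 to 4 CPM, 61 (3.50%) had a higher log2 fold change, and the 95% confidence interval in this range had a median half-width of 0.35. CYP1A2, the closest relative in sequence, held 2 reads in all 8 libraries together, and whether reads of one gene were placed on the other was not tested.

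CYP1B1 (Entrez gene 1545; chromosome 2, 38294116 to 38337044, minus strand), the other P450 target, had 1.61, 1.63, 1.84 and 1.58 CPM in DMSO replicates 1 to 4 and 1.65, 1.60, 1.67 and 2.22 CPM in lenalidomide replicates 1 to 4. Lenalidomide replicate 4 stood above all other libraries, and the rest overlapped. The log2 fold change was 0.10 (95% confidence interval -0.23 to 0.43), and without lenalidomide replicate 4 it was -0.02. CYP1B1 shares 677 exonic bases with CYP1B1-AS1 and 96 with RMDN2, both on the opposite strand. CYP1B1-AS1 held 5 reads in all libraries together, and RMDN2 had a log2 fold change of -0.0054.

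The values of the receptor and its partner overlapped between treatments. AHR (Entrez gene 196; chromosome 7, 16955983 to 17385776, plus strand) had 94.7, 85.2, 79.5 and 87.0 CPM in DMSO replicates 1 to 4 and 82.7, 85.1, 89.9 and 83.3 CPM in lenalidomide replicates 1 to 4. DMSO replicate 1 was the highest and DMSO replicate 3 the lowest of all 8 libraries. The log2 fold change was -0.02 (95% confidence interval -0.15 to 0.10), and without DMSO replicate 1 it was 0.02. ARNT (Entrez gene 405; chromosome 1, 150782189 to 150849184, minus strand), which also pairs with the hypoxia factors, had 48.0 ± 1.49 CPM in the solvent and 46.6 ± 1.16 CPM under the drug (mean ± SD of 4 libraries). Its libraries ran from 46.4 to 50.0 CPM and from 45.6 to 47.8 CPM, and the log2 fold change was -0.04 (95% confidence interval -0.15 to 0.06). For both genes a change beyond about 0.15 in size on the log2 scale lay outside the interval. AHR shares 2373 annotated exonic bases with an unnamed gene on the same strand and 492 with one on the opposite strand, for which no counts were used here.

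Ratios of read counts within a library do not depend on its scaling. They use the values TIPARP was picked for and are given as a description. TIPARP had 1.21, 1.35, 1.32 and 1.26 reads per AHR read in DMSO replicates 1 to 4 and 1.09, 1.07, 1.07 and 1.04 in lenalidomide replicates 1 to 4. The treatments did not overlap, with means of 1.29 ± 0.0625 and 1.07 ± 0.0234 (SD, n = 4 each). Against AHRR, by contrast, TIPARP kept a similar ratio, with 9.14 ± 0.466 reads per AHRR read with DMSO and 9.04 ± 0.602 with lenalidomide (SD, n = 4 each), and the treatments overlapped. AHRR, whose CPM values separated, overlapped when set against AHR, at 0.130 to 0.155 reads per AHR read with DMSO and 0.111 to 0.134 with lenalidomide. For CYP1A1 and TIPARP, whose CPM values separated in opposite directions, the ratio could not overlap. There were 1.55 ± 0.0389 CYP1A1 reads per 100 TIPARP reads with DMSO, from 1.51 to 1.59, and 2.53 ± 0.410 with lenalidomide, from 1.97 to 2.95 (SD, n = 4 each).

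**Figure D2:**
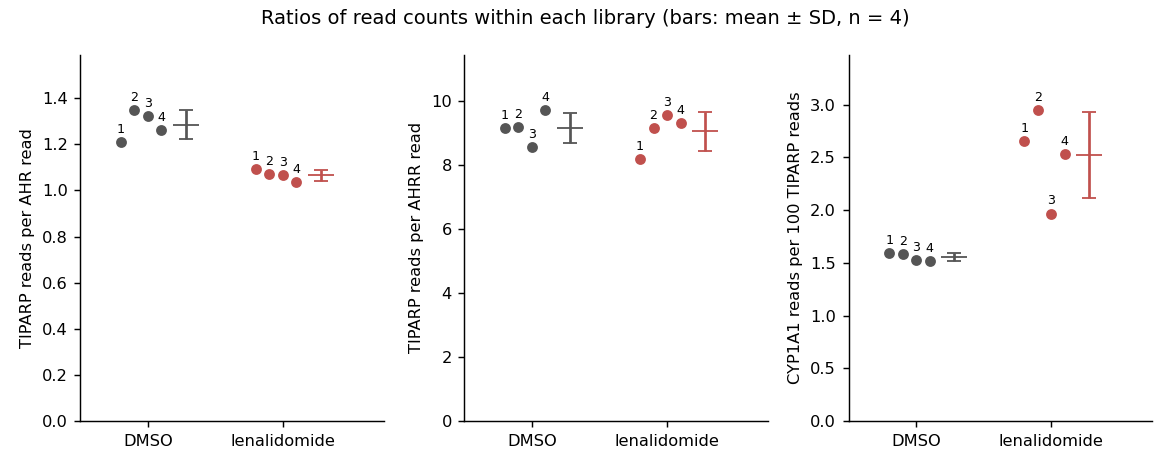
Ratios of read counts within each of the 8 libraries, with replicate numbers beside the points and the mean ± SD (n = 4) as a bar, for TIPARP per AHR read (left), TIPARP per AHRR read (middle) and CYP1A1 per 100 TIPARP reads (right). The left ratio averages 1.29 with the solvent and 1.07 with the drug, the middle ratio overlaps at 9.14 and 9.04, and the right ratio averages 1.55 and 2.53.

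Across the 8 libraries the level of TIPARP ran with that of AHRR, at a Pearson r of 0.88 and a Spearman rho of 0.90 on log2 CPM, and against that of CYP1A1, at r = -0.76 and rho = -0.67. Both values contain the difference between the treatments that chose TIPARP. On deviations from the treatment means, r was 0.35 for AHRR and 0.00 for CYP1A1. AHR showed the reverse. Its r with TIPARP was 0.39 over the 8 libraries and 0.75 on deviations from the treatment means. For CYP1B1, which rests on 51 to 64 reads per library, the 2 values were -0.51 and -0.71, and for ARNT 0.53 and 0.11. Within the treatments, DMSO replicate 3 was the lowest and lenalidomide replicate 3 the highest in both AHR and TIPARP. All genes of a library share its depth and composition, and 8 points with 2 treatment means removed leave few degrees of freedom, so these are descriptions.

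**Figure D3:**
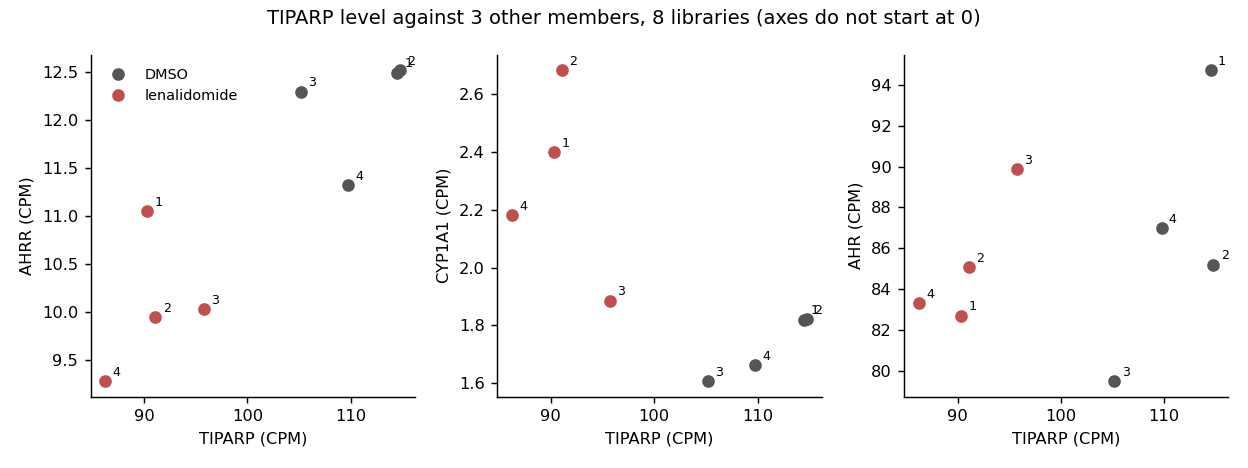
Level of TIPARP (CPM, horizontal axis) against AHRR, CYP1A1 and AHR (CPM, vertical axes) in 4 DMSO and 4 lenalidomide libraries, numbered by replicate, on axes that do not start at 0. The treatments form 2 groups along TIPARP, with AHRR lower and CYP1A1 higher in the lenalidomide group, and AHR overlapping, from 79.5 to 94.7 CPM with the solvent and 82.7 to 89.9 CPM with the drug.

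The genes most like TIPARP over the 8 libraries, out of 9092 with a mean of at least 10 CPM, were MORF4L2 (r = 0.98), the adhesion receptor ADGRF1 (0.98), C17orf80 (0.95), YIPF6 (0.95) and the monoacylglycerol lipase ABHD6 (0.94). ADGRF1 averaged 51.1 CPM in the solvent and 40.9 CPM under the drug (log2 fold change -0.32, with 0.317 as its adjusted p in the edgeR quasi-likelihood test, n = 4), while DESeq2 and the likelihood ratio test both called it. The others had log2 fold changes from -0.18 to -0.09 (adjusted p = 0.999 each). TIPARP was picked for its difference between treatments. Genes ranked by likeness to it over all libraries therefore tend to share that difference, and nothing is read from these calls. The highest r of 9092 genes over 8 libraries can be large without a link between the genes. On deviations from the treatment means the 3 most like were TAF5 (0.99), ARHGAP5 (0.99) and PIBF1 (0.98), none of which is among the 5 above. For AHRR they were the zinc finger factor KLF5 (0.93), the vitamin D receptor VDR (0.93) and GDE1 (0.91). KLF5 had a log2 fold change of -0.23 and VDR of -0.21, with adjusted p-values of 0.649 and 0.999 from the same test. For CYP1A1 they were TVP23C-CDRT4, DENND2D and PMS2 (0.96 each), for CYP1B1 OCRL (0.97), POFUT2 (0.96) and CDC25B (0.95), for AHR RPL12 (0.97), PRRG4 (0.96) and FDX1 (0.95), and for ARNT SGCE (0.92), RNF126 (0.90) and SRSF2 (0.90).

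The wider pathway was examined in 59 further genes in 6 lists, of which 43 had enough counts to be tested. At the adjusted threshold of 0.05 the quasi-likelihood test called 0 of the 43, where 0.0144% of all genes tested were called. DESeq2 called 1, NRIP1, and so did the likelihood ratio test, where 0.0646% and 0.0862% of all genes were called. NRIP1 was listed with its difference known from earlier results, so nothing is read from its part in the counts here. At an unadjusted p under 0.05, 2 of the 43 were higher (EPAS1 and NRIP1) and 1 was lower (ABCG2), where 3.26% of all genes tested were higher and 0.919% lower. The median log2 fold change of the 43 genes was 0.03 and that of all genes tested 0.0025. The median size was 0.066 over the 43 genes and 0.055 over all genes tested, and 40 of the 43 had a 95% confidence interval that included 0.

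The chaperones that hold the receptor in the cytosol were abundant, and 0 of 3 were past the threshold in either direction. HSP90AB1, the most abundant of all the lists at 3805 RPKM, had 11053 ± 1352 CPM in the solvent and 10475 ± 821.3 CPM under the drug (mean ± SD of 4 libraries), a log2 fold change of -0.08. HSP90AA1 had a log2 fold change of 0.07 (95% confidence interval -0.11 to 0.24). PTGES3 was at 0.05.

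Of 13 bHLH-PAS partners and relatives 9 were tested and 0 passed. HIF1A, the hypoxia factor that shares ARNT with the receptor, was the most abundant at 83.0 RPKM, with a log2 fold change of -0.03 (95% confidence interval -0.14 to 0.09). EPAS1, the related factor HIF-2α, had 26.3, 22.4, 22.6 and 22.1 CPM with DMSO and 26.5, 25.8, 25.6 and 29.8 CPM with lenalidomide in replicates 1 to 4. Only DMSO replicate 1 reached the lenalidomide range. The log2 fold change was 0.20 (standard error 0.074), that of SIM2 was 0.18 (standard error 0.089), and both had an adjusted p of 0.999 in edgeR. HIF3A, SIM1, NPAS3 and NPAS4 did not exceed 7 counts in any library. ARNT2, the paralog of ARNT, was at 7.49 CPM with DMSO and had a log2 fold change of 0.08.

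Of 7 coregulators 0 passed by the quasi-likelihood test. NRIP1, a corepressor of nuclear receptors, had 142.6, 134.8, 132.8 and 144.2 CPM with DMSO and 168.9, 162.9, 181.6 and 173.9 CPM with lenalidomide in replicates 1 to 4. All lenalidomide libraries were above all DMSO libraries, which was known from earlier results when the list was made. The log2 fold change was 0.31 (standard error 0.054), and the quasi-likelihood test in edgeR gave 0.172 as adjusted p. The acetyltransferase CREBBP was at 0.12 (95% confidence interval -0.05 to 0.30), RB1 at 0.03, and the coactivators NCOA1, NCOA2 and NCOA3 between -0.0023 and 0.031.

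Of 12 other targets of the receptor 7 were tested and 0 passed, 3 with a log2 fold change above 0 and 4 below. The quinone reductase NQO1 had 439.9 ± 36.7 CPM in the solvent and 466.9 ± 28.7 CPM under the drug (mean ± SD of 4 libraries), a log2 fold change of 0.09 (95% confidence interval -0.06 to 0.23). EREG, a ligand of the EGF receptor and the most abundant of this list at 179.4 RPKM, was at -0.03 (95% confidence interval -0.16 to 0.10). ABCG2, an efflux transporter, had 5.05 ± 0.749 CPM in the solvent and 4.12 ± 0.287 CPM under the drug, with -0.29 as log2 fold change (standard error 0.12; edgeR adjusted p = 0.999), and its treatments overlapped. CYP1A2, UGT1A1, UGT1A6, GSTA1 and SERPINB2 did not exceed 4 counts in any library.

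Of 8 enzymes that make or consume the tryptophan-derived ligands of the receptor 3 were tested and 0 passed. IDO1, IDO2, TDO2, KYNU and KMO, enzymes of the kynurenine pathway, did not exceed 15 counts in any library. IL4I1, an amino acid oxidase that yields indole ligands, had 11.2 ± 0.680 CPM in the solvent and 10.7 ± 0.575 CPM under the drug (mean ± SD of 4 libraries), a log2 fold change of -0.06 (95% confidence interval -0.23 to 0.10). AADAT was at -0.01 and AFMID at 0.08.

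Of 16 relatives of TIPARP in the PARP family 14 were tested, 0 passed, and 10 had a log2 fold change above 0, as did 51.3% of all genes tested. Their log2 fold changes ran from -0.09 to 0.18, and each 95% confidence interval included 0. PARP1, the abundant DNA damage sensor at 121.7 RPKM, was at -0.01 (95% confidence interval -0.15 to 0.13). PARP16 and PARP9 were at 0.18 and 0.15 (adjusted p = 0.999 each by edgeR's quasi-likelihood test). PARP10 and PARP15 did not exceed 6 counts in any library.

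**Figure D4:**
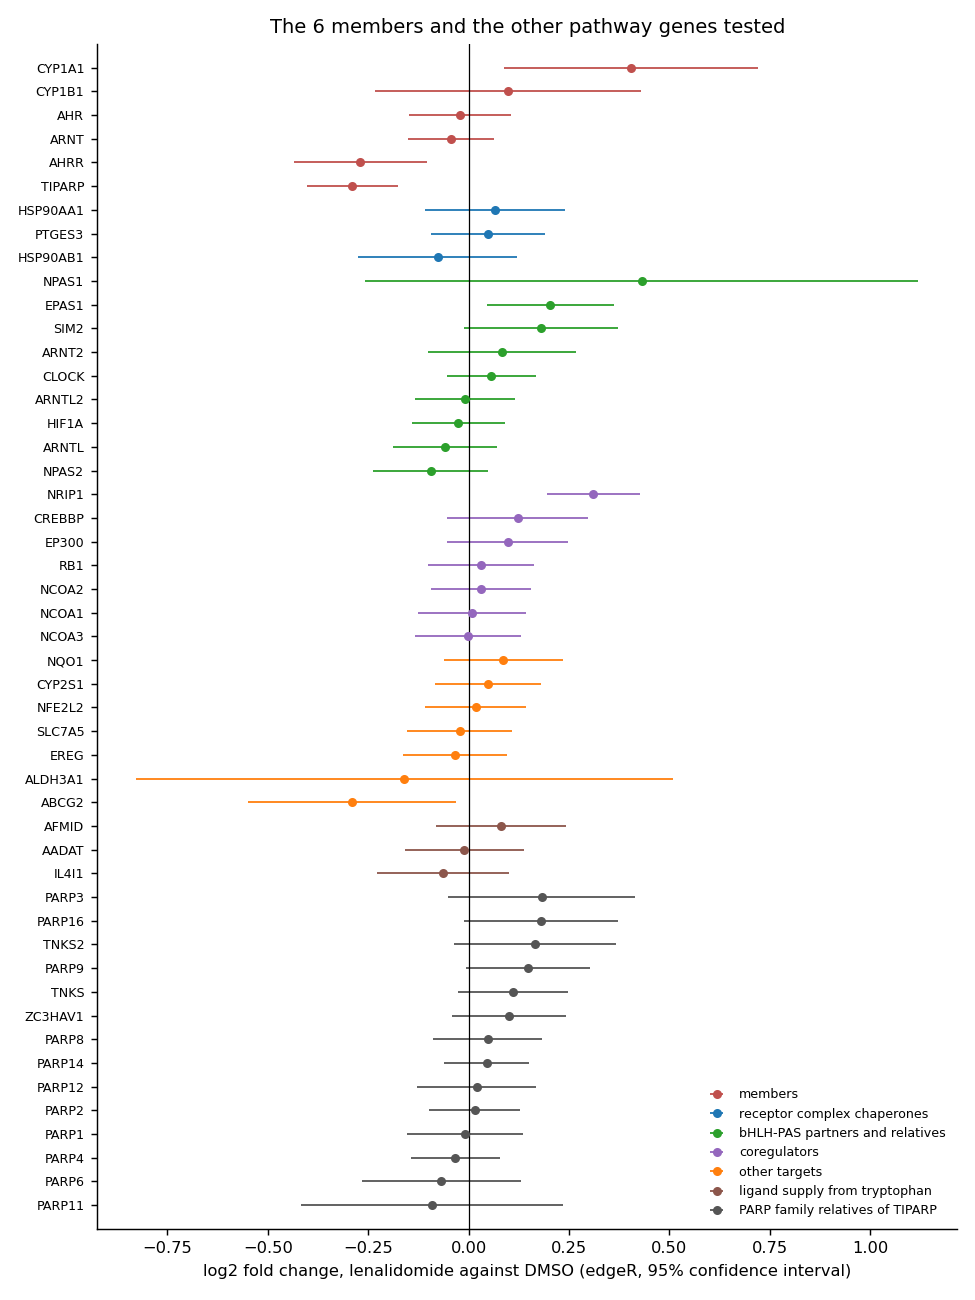
Log2 fold change of lenalidomide against DMSO with 95% confidence intervals (edgeR) for the 6 members at the top and the 43 other pathway genes tested, coloured by list. TIPARP at -0.29 and AHRR at -0.27 lie left of 0 and CYP1A1 at 0.40 right of 0, and of the other pathway genes the intervals of EPAS1, NRIP1 and ABCG2 leave out 0.

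The pattern of the members was compared over 15 alternatives, of which 8 left out 1 library each. TIPARP stayed between -0.32 and -0.27, AHRR between -0.32 and -0.23 and CYP1A1 between 0.32 and 0.49. For CYP1A1, at 0.40 with all libraries, the lowest value was 0.32 without lenalidomide replicate 2 and the highest 0.49 without lenalidomide replicate 3. Without lenalidomide replicate 4, which had the smallest total and the most genes with a count, the values were -0.27, -0.23 and 0.43. With every library thinned to 28218471 counts they were -0.28, -0.28 and 0.35.

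**Figure D5:**
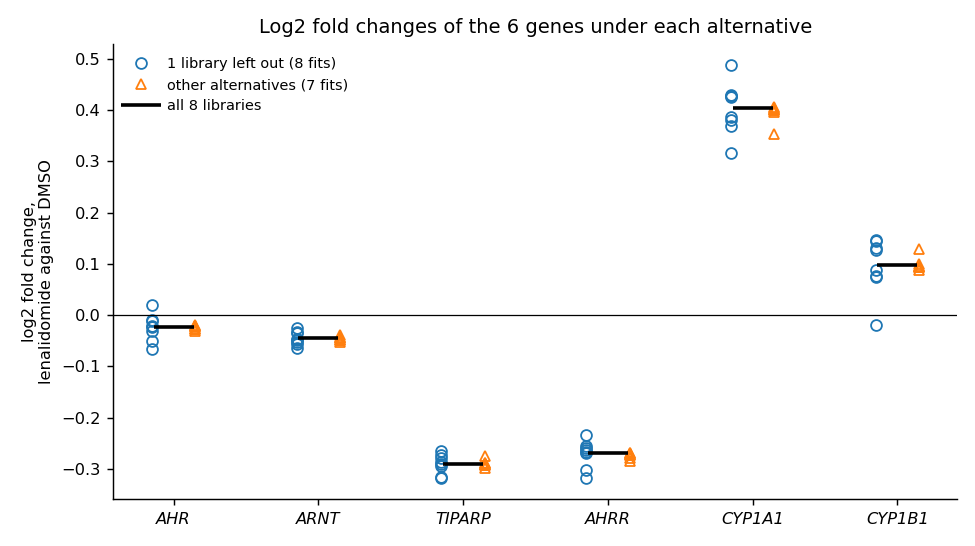
Log2 fold change of lenalidomide against DMSO for each of the 6 genes with all 8 libraries (black bar), with 1 library left out (circles, 8 fits) and under the other alternatives (triangles, 7 fits). TIPARP and AHRR are below 0 and CYP1A1 above 0 throughout, whereas AHR and CYP1B1 each cross 0 when 1 library is left out.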

How the data were processed

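RNA from Hct116 cells was prepared with the ScriptSeq v2 total RNA kit and sequenced on an Illumina instrument, with bcl2fastq 2.17 named in the submitters' processing notes. The authors aligned the reads to hg19 with QuasR, spliced alignments allowed, and deposited raw read counts per gene of the UCSC known gene models, beside exonic widths (other versions are not given in the sources used here). Of 23459 rows, 70 had no symbol and held 0.0223% of counts. They were kept, and no column was without a sample.

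The table was fitted whole in edgeR 4.0.16 (R 4.3.3). filterByExpr (minimum count 10, minimum total 15) kept 13925 genes. Log2 fold changes come from the quasi-likelihood test after TMM scaling, with Benjamini-Hochberg adjustment at 0.05. CPM values use library size and TMM factor, RPKM values also the exonic width, and log2 CPM a prior count of 2. DESeq2 1.42.0, the likelihood ratio test, RLE scaling, 2 other filters, a replicate block and leaving out each library were alternatives. The quasi-likelihood test was tried on simulated counts in which 200 genes were changed. It recovered 32.5% of them at a log2 fold change of 0.3 in size, 78.5% at 0.6 and 93% at 1. A gene that was not called may therefore still differ by about 0.3. Intervals cover the replicate spread seen here, and PCR duplicates could not be told from independent molecules. Gene positions and exon overlaps are from GENCODE 44 lifted to GRCh37. Promoter sequences are from RefSeq on GRCh38.p14.

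The members and lists were chosen with earlier results of these data known. The genes named are the 6 members, the 2 genes of each list with the smallest p among those of at least 1 CPM, the most abundant gene of each list by RPKM, and the 5 genes (3 for other members, and 3 on deviations from the treatment means) with the highest r to TIPARP or to that member. Any further gene was named once its values had been seen. Of the pathway and marker lists, 2 further genes were left out and are not reported here.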

Additional observations from a re-analysis of the deposited data

Results flagged for a closer look

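For the 6 members and the 17 pathway genes named by rule, each treatment was searched for a lone high or low library. Among these 46 sets of 4 libraries, 2 had one, and by chance about 1 set in 20 does. In lenalidomide replicate 4 CYP1B1 reached 2.22 CPM on 64 reads, while the other lenalidomide libraries had at most 1.67 CPM. In DMSO replicate 1 EPAS1 reached 26.3 CPM, while the other DMSO libraries lay between 22.1 and 22.6 CPM. The cause of either value was not tested.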

How the results depend on the processing

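Over all genes, 2 were past the adjusted threshold of 0.05 in edgeR's quasi-likelihood test. DESeq2 gave 9 (0.0646% of those tested), the likelihood ratio test 12 (0.0862%), and the filter at 1 count 4. Leaving out single libraries gave from 1 to 2, with 2 remaining when lenalidomide replicate 4 was the one left out and 1 for each of the others. Of the other pathway genes 0 of 43 were past it, against 1 in DESeq2 and 1 in the likelihood ratio test, NRIP1 both times, at an adjusted p of 0.000167 and 0.00102. Leaving out single libraries gave 0 in each case. The adjusted p of NRIP1 ran up to 0.739 over its alternatives. The cause was not tested.

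With the replicate number as a block, 6 genes passed and 0 of the other pathway genes, and TIPARP was at -0.29. Deviations of same-numbered libraries correlated at 0.028, -0.024, 0.031 and 0.27 over the genes tested, and 3 of 8 libraries correlated best with their own number, so that the numbers are not taken as pairs.

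TIPARP kept its value within the replicate spread under all 15 alternatives, from -0.32 to -0.27 with each library left out. So did the 75 values of the other members, although AHR and CYP1B1 changed sign once each. Leaving out 1 library can hardly move a value beyond that spread, so these counts do not show that the values are stable. Of 255 values for the 17 pathway genes named, 245 kept direction and side of the threshold and 2 were stronger. The 8 that changed sign came from leaving out 1 library. Over these fits HSP90AB1 ran from -0.13 to 0.0011, RB1 from -0.0063 to 0.072, AADAT from -0.047 to 0.024 and PARP1 from -0.058 to 0.043. The share of promoters with GCGTG, 32.2% in 250 bases, was 36.5% in the whole 300 bases, where 4 instead of 3 of 5 members had a match. The thinning was chosen after seeing the data. Depth limits CYP1A1 and CYP1B1, at no more than 89 and 64 reads per library.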
